A study of Mus musculus with 6 samples.

Results

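The cytosolic ribosomal protein genes were examined in ethanol-exposed mouse liver with and without Cd44. Members were the protein-coding genes with a symbol starting with Rpl or Rps and a digit, plus Rpsa, Rplp0, Rplp1 and Rplp2, without the S6 kinases (Rps6k) and symbols containing -ps. This rule, which used no measured value, found 86 members among 54682 rows of the count table. They comprise 31 small subunit genes, 46 large subunit genes, 8 paralogs of core genes, and Rps19bp1, which encodes a binding partner of RPS19 and no ribosomal protein. Fau and Rack1, components of the same particle with other names, fall outside the rule and are given beside the members.

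Livers came from 3 wild-type mice, whose strain the labels do not name, and 3 mice of the strain B6.Cg-Cd44tm1Hbg/J, which carries a targeted Cd44 allele; 1 poly(A) RNA library was made per mouse. All 6 mice, controls included, drank the Lieber-DeCarli ethanol diet (5% by volume) over 10 days, were gavaged with ethanol at 5 g/kg on day 11, and were killed after 9 hours. No ethanol-free mouse was analysed here, so the comparison concerns genotype within ethanol exposure. The labels do not place the loss of Cd44 in one cell type. In bulk liver RNA, fewer cells of a type and less RNA per cell cannot be told apart.

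The cytosolic ribosome is built from a small subunit, which reads the mRNA, and a large subunit, which joins amino acids. Most core proteins are needed in equal numbers, and most of their mRNAs begin with a run of pyrimidines, the 5′ terminal oligopyrimidine (TOP) motif, through which mTORC1 and the RNA-binding protein LARP1 set their translation. Hepatocytes, which secrete most plasma proteins, hold large amounts of ribosomes. mRNA levels, as measured here, do not report how much of an mRNA is translated.

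The stretch around the transcription start, where the TOP motif lies, is shown for 5 members and for 2 snoRNA host genes described further on. Each window runs from 10 bases before the RefSeq start to 20 from it on, GRCm38.p6, 5′ to 3′ on the gene's strand, and capitals mark its longest run of C or T. Rps6, the target of S6 kinase, comes first, followed by the P-stalk gene Rplp2, the large subunit genes Rpl35, Rpl15 and Rpl13a, and the non-coding genes Snhg1 and Snhg12.
Rps6, chr4:86857348-86857377, minus strand: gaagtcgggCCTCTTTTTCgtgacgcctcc
Rplp2, chr7:141447641-141447670, plus strand: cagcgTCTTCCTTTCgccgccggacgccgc
Rpl35, chr2:39005112-39005141, minus strand: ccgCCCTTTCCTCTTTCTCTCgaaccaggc
Rpl15, chr14:18270967-18270996, minus strand: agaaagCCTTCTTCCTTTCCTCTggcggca
Rpl13a, chr7:45128726-45128755, minus strand: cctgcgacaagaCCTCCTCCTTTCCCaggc
Snhg1, chr19:8723477-8723506, plus strand: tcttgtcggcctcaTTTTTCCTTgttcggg
Snhg12, chr4:132308668-132308697, plus strand: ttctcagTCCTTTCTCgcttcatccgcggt
These 7 runs, chosen for display after their lengths were seen, are 9 to 18 bases long. Shorter longest runs were found in the windows of Rps27rt (6 bases), Rps27l (7 and 4 bases at its 2 starts), Snhg5 and Snhg8 (7 bases each), Zfas1 (4 bases) and Gas5 (3 and 6 bases at its 2 starts). A run of at least 6 C or T was present in 55.2% of 67 start windows of core members, against 28.7% of 32851 windows of the genome. Of the 86 members, 66 matched a RefSeq promoter window by symbol, and some have several starts. In the 300 bases from 250 before to 50 after the start, on both strands, CTTTCC was found in 49.3% of the 67 core windows and 26.6% of all windows, CCGGAAG, a core of ETS factor sites, in 37.3% and 8.86%, and AAGATGG, a core of YY1 sites, in 16.4% and 6.34%. The capitals of the C or T runs can overlap CTTTCC. These are matches of letters and say nothing of binding.

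Libraries held 15429784 to 19293777 counts in annotated genes, so 3 counts correspond to 0.155 to 0.194 CPM (counts scaled to library size) before TMM factors. CPM given for genes and markers include the TMM factors. Cd44 had 590, 175 and 568 counts in wild-type mice 1, 2 and 3 and 1, 0 and 0 in knockout mice, which matches the labels. Hepatocyte markers were abundant, with a summed level of 89867 to 116849 CPM, and 7 of 10 had higher means without Cd44. Of all genes tested, 48.9% had a higher mean in the knockout. Kupffer cell and macrophage markers moved with genotype: all 10 had lower means without Cd44. Their summed level spanned 355 to 965 CPM among wild-type mice and 283 to 316 CPM among knockout mice, and none was at 0 in all libraries. All 6 cycling markers were lower, at 43.7 to 101 CPM and 21.5 to 27.5 CPM. Cholangiocyte (5 of 5), erythroid (5 of 5), neutrophil (3 of 3 tested) and stellate cell markers (6 of 7) also had mostly lower means, and endothelial markers were lower in 4 of 6. B cell and plasma cell markers ranged from 10.3 to 258 CPM in wild-type and from 20.6 to 228 CPM in knockout mice. Of 8 T and NK cell markers, 2 were tested, 1 higher and 1 lower. The part of these cells in the ribosomal protein values was not tested.

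Levels were compared between members as TPM, reads per transcript length, using 1 principal transcript per gene. Over the 77 core genes the median level was 393 TPM, with quartiles at 279 and 543 TPM. Within 2-fold of that median lay 62 of the 77. The highest levels were those of Rplp1 (1235 TPM), a P-stalk protein that helps recruit elongation factors, Rpl41 (1005 TPM), which encodes a very short peptide, Rpl10 (963 TPM), Rps2 (962 TPM), Rps18 (938 TPM) and Rpl13 (740 TPM). Only 5 core genes were listed under 100 TPM: Rps20, Rpl21, Rpl13a, Rps10 and Rpl24. For Rps20 (76.1 TPM) the principal transcript chosen is 3706 bases long, far beyond that of its neighbours, so its level is understated if a shorter form carries the reads. For Rpl21, Rps10 and Rpl24 most reads are in copies, described below. Rpl24 stayed low with its copies added, at 2.25 to 3.35 CPM. On its own strand, Rpl13a shares 621 exon bases with the gene model Gm45713, Rps10 shares 475 with RPS10-NUDT3 and Rpl24 shares 484 with Gm28037, each with 0 counts in all 6 libraries. How reads in such shared exons were counted is not given in the sources, so the low listed levels of these 3 genes need not be low expression. The paralog Rpl36al shares 332 exon bases on its own strand with Gm49383, which had 1 count over the 6 libraries. Small subunit genes had a median of 386 TPM and large subunit genes of 394 TPM.

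**Figure D1:**
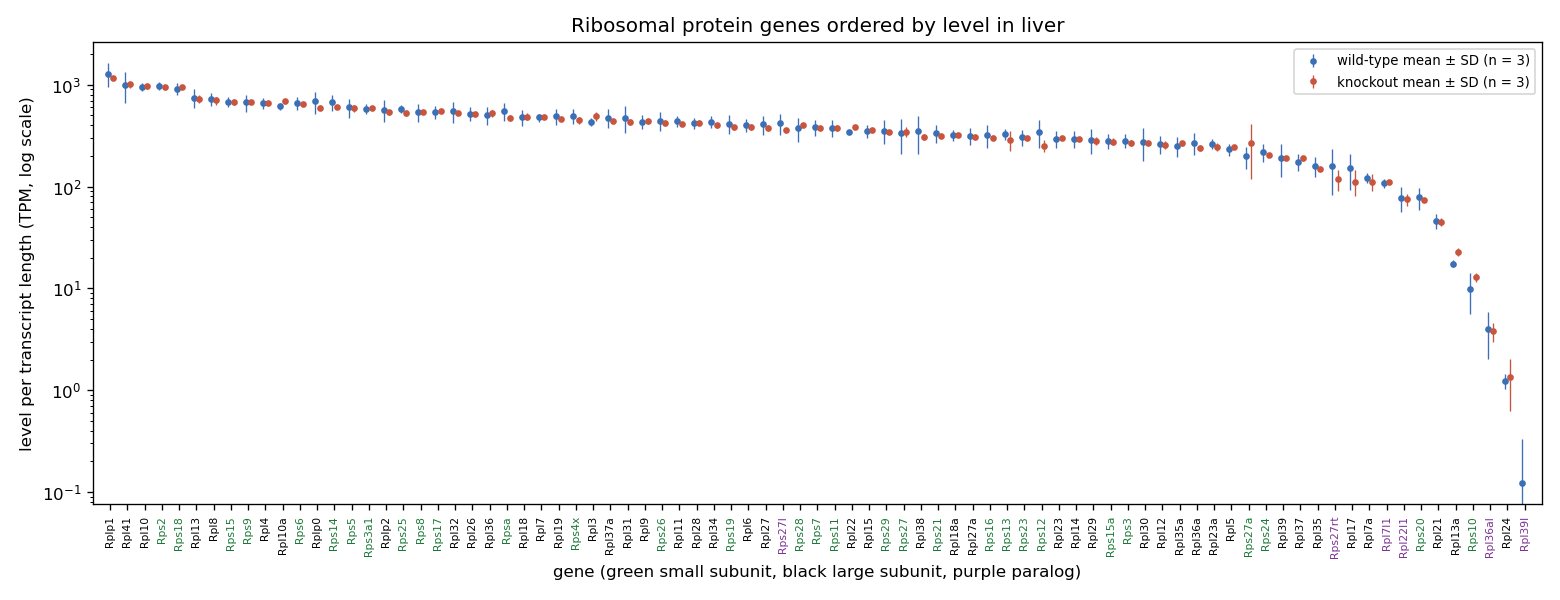
Level of each ribosomal protein gene above 0.05 TPM, as TPM on a log axis, ordered by the mean of the 6 libraries, with mean ± SD for 3 wild-type and 3 knockout mice. The quartiles of the 77 core genes are 279 and 543 TPM, and the levels of the lowest 5 core genes drop to 1.28 TPM.

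Apart from Rps27l, the paralogs lay below most core genes, and some were not detected. Rps27l, a p53-responsive relative of Rps27, stood at 390 TPM, Rps27rt at 138 TPM, Rpl7l1 at 110 TPM and Rpl22l1, the relative of Rpl22, at 76.2 TPM. Rpl36al reached 3.87 TPM. Rps4l, annotated as a transcribed pseudogene and so outside the members, was at 13.3, 9.06 and 12.4 CPM in wild-type and 21.5, 12.9 and 15.2 CPM in knockout mice. The groups overlapped, and its log2 fold change of 0.51 ± 0.23 (edgeR adjusted p = 0.412) was larger than that of any tested paralog among the members, the highest of which was 0.13 for Rpl7l1. Rpl39l, known from testis, had 2 counts in wild-type mouse 3 and 0 in the other 5 libraries, Rpl3l, known from striated muscle, had 2 counts in knockout mouse 3 and 0 elsewhere, and Rpl10l, also a testis gene, had 0 in all 6. A count of 0 allows up to 0.155 to 0.194 CPM before TMM factors, and no fold is given for these 3. Rpl24, with 4 to 12 counts per library, was the only core gene below the filter on low counts.

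No member passed the threshold between genotypes. Of 82 members tested, 0 had an adjusted p under 0.05 in edgeR's quasi-likelihood test, where 0.0141% of 14145 genes did; DESeq2 called 0 members (2.33% of all genes) and limma-voom 0 (0.0% of all genes). At an unadjusted p under 0.05 there was 1 member in edgeR, Rpl13a, which was higher, against 12.8% of all genes (5.22% higher and 7.59% lower). DESeq2 had 3 members (12.3% of all genes) and limma-voom 1 (12.0%). The median log2 fold change, knockout relative to wild-type, was 0.052 over the 82 members and -0.0075 over all genes tested, and single members ran from -0.38 for Rpl17 to 0.56 for Rps27a. The 95% interval stayed inside a 1.5-fold change either way for 72 of 82 members, and for 38.7% of all genes. In simulated counts of 14145 genes with 3 mice per genotype, edgeR found 9.33% of the genes set to differ 1.5-fold and 56.0% of those set to differ 2-fold. These genes were drawn from all genes tested, whose median SE in the real data was 0.204, against 0.147 over the members. Recovery among the members themselves was not simulated.

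**Figure D2:**
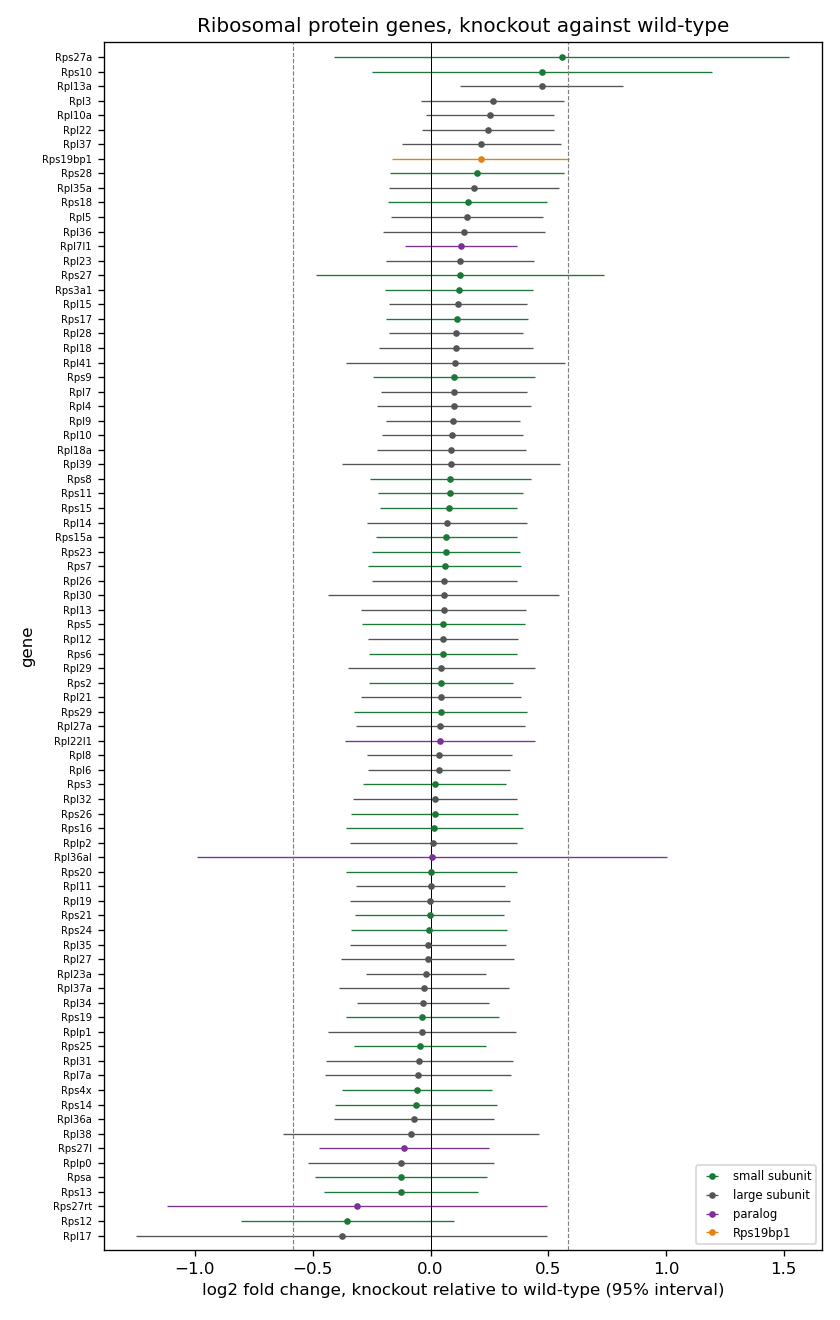
Log2 fold change of the 82 tested members, knockout relative to wild-type, with 95% intervals from edgeR; dashed lines mark a 1.5-fold change and colours the subunit. Intervals of 72 members lie between the dashed lines, while those of Rps27a, Rps10, Rpl17, Rps27rt and Rpl36al are wide.

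A higher mean in the knockout was found for 58 of 82 members, where 48.9% of all genes had one; with library totals alone in place of TMM it was 32 of 82. The small subunit had 22 of 31 genes higher (median 0.052) and the large subunit 32 of 45 (median 0.056). The ratio of small to large subunit counts was 0.710 to 0.737 in the 6 libraries. All 3 knockout values lay above all 3 wild-type values for 4 members, Rpl13a, Rpl10a, Rpl3 and Rpl7l1, and lay below for 0; of all genes 18.2% did not overlap, 8.81% being higher and 9.42% lower in the knockout.

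Rpl13a (ENSMUSG00000074129, GRCm38.p6, chromosome 7, 45125558 to 45128761, minus strand) encodes a large subunit protein also known as a silencer of inflammatory mRNAs once it leaves the ribosome. Its level was 10.2, 9.71 and 9.52 CPM in wild-type mice and 12.2, 13.7 and 14.99 CPM in knockout mice, so every knockout value exceeded every wild-type value. The log2 fold change was 0.47 ± 0.15 (SE), with an unadjusted p of 0.0137 and an adjusted p of 0.270 in edgeR. It had 149 to 273 counts per library. As given above, it shares 621 exon bases on its own strand with Gm45713, and how reads there were counted is not given. These values may therefore cover only part of its reads. Without knockout mouse 3, 0 members had an unadjusted p under 0.05 in edgeR.

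Rpl10a, the protein of the L1 stalk, where spent tRNA leaves the ribosome, stood at 232, 241 and 247 CPM in wild-type and 278, 283 and 298 CPM in knockout mice. The groups did not overlap, and the log2 fold change was 0.25 ± 0.12 (edgeR adjusted p = 0.425). Rpl3, which lies by the peptidyl transferase centre, was at 302, 317 and 328 CPM against 344, 389 and 404 CPM. Its log2 fold change was 0.26 ± 0.13 (edgeR adjusted p = 0.459). The paralog Rpl7l1 was at 77.7, 73.3 and 77.2 CPM in wild-type and 82.1, 81.0 and 86.6 CPM in knockout mice, a log2 fold change of 0.13 ± 0.10. Rpl22 and Rpl37, also among the higher members with the smallest p, had 0.24 ± 0.12 and 0.22 ± 0.15, with overlapping groups.

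The remaining core genes that are widely used as reference genes had log2 fold changes from -0.12 for Rplp0 to 0.16 for Rps18. Rplp0, the P-stalk base, was at 420, 466 and 610 CPM in wild-type and 464, 443 and 465 CPM in knockout mice. Its log2 fold change was -0.12 ± 0.17. Wild-type mouse 3 stood above the other 5 libraries. Rps18 had a log2 fold change of 0.16 ± 0.15, Rpl19 of -0.0026 ± 0.15, Rpl32 of 0.017 ± 0.15, Rpl4 of 0.099 ± 0.14 and Rps9 of 0.10 ± 0.15. Rpl5, Rpl11 and Rpl23, which bind MDM2 when ribosome assembly fails, had log2 fold changes of 0.15 ± 0.14, 0.00058 ± 0.14 and 0.13 ± 0.14. Rps6 was at 279, 311 and 342 CPM and 326, 303 and 336 CPM, with overlapping groups. Rps19, which is mutated in Diamond-Blackfan anaemia, had -0.034 ± 0.14, and Rps19bp1 had 0.21 ± 0.16.

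The members shared a pattern over the libraries that did not follow genotype. Taking each member's log2(CPM + 0.5) minus its mean over the 6 libraries, the median of the 82 was -0.20, -0.062 and 0.16 in wild-type mice 1, 2 and 3 and 0.019, -0.022 and 0.10 in knockout mice 1, 2 and 3. Wild-type mouse 1 was the lowest library for 67 of 82 members (17.1% of all genes) and wild-type mouse 3 the highest for 50 (23.6% of all genes). Wild-type mouse 3 exceeded both other wild-type mice for 69 members.

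**Figure D3:**
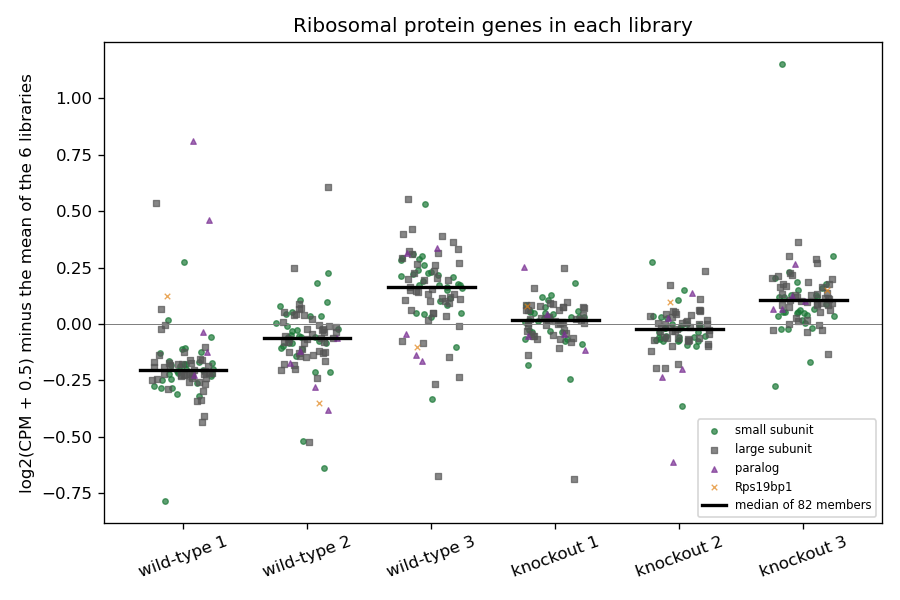
Each member's log2(CPM + 0.5) minus its mean over 6 libraries, by library, with the median of 82 members as a bar. Wild-type mouse 1 is lowest, at -0.20, wild-type mouse 3 highest, at 0.16, and the 3 knockout libraries lie between -0.022 and 0.10.

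In raw counts, members took 1.28, 1.32 and 1.74% of annotated counts in wild-type mice 1, 2 and 3 and 1.40, 1.45 and 1.41% in knockout mice. The share was 1.44 ± 0.259% (SD, n = 3) in wild-type and 1.42 ± 0.0278% in knockout mice, a difference of -0.025 percentage points, smaller than the wild-type spread. The 3 knockout values lay nearer each other than the 3 wild-type values for 71 of 82 members, and for 67.4% of all genes. Wild-type mouse 3 also had the highest cycling marker sum, 101 CPM, and the second highest Kupffer cell and macrophage sum, 819 CPM. Wild-type mouse 1, the lowest in ribosomal protein genes, had the highest Kupffer cell and macrophage sum, 965 CPM, and the second highest cycling sum, 60.9 CPM. Among genes with a summed exon length under 1 kb, members left out, the median deviation was -0.094 in wild-type mouse 1, 0.023 in wild-type mouse 3 and 0.13 in knockout mouse 3. Short genes in general were thus also low in wild-type mouse 1 and high in knockout mouse 3; the part of length was not tested.

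The count of members that rank higher therefore rests on which wild-type library is kept. Without wild-type mouse 3, 75 of 82 members had a higher mean in the knockout (48.2% of all genes), the median log2 fold change was 0.17 (-0.012 over all genes), and 44 members did not overlap (43 higher; 29.3% of all genes did not overlap, 14.6% higher). At an unadjusted p under 0.05 there were then 5 members (11.7% of all genes), and the smallest adjusted p of a member in edgeR was 0.315. Without wild-type mouse 1, 29 of 82 had a higher mean and the median was -0.030. Without wild-type mouse 3 the difference in share became 0.124 percentage points.

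Near-identical copies bear on several single-gene values. Ribosomal protein genes have many processed pseudogenes, copies of the mRNA placed back into the genome, and a read that fits gene and copy equally cannot be assigned with certainty. Matching each member's principal transcript against the other transcripts, at 95% identity or more over 200 bases or more, found 596 copies for 78 members. For 45 members under 5% of the reads of gene and copies together lay in the copies. For 5 members it was more than 50%: Rps10 (94.4%), Rpl21 (84.5%), Rpl24 (83.6%), Rpl17 (72.6%) and Rps27rt (69.5%). The sums of gene and copies were an alternative chosen after the data were seen.

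Rps27 and Rps27rt, a processed copy kept as protein-coding gene, match over 341 bases at 100% identity. Their start windows share a run of 19 bases, in capitals here, which lies from the start on and takes in none of the 10 bases before it.
Rps27, chr3:90213629-90213658, minus strand: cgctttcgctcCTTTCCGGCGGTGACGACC
Rps27rt, chr9:114982720-114982749, minus strand: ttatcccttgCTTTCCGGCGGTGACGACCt
Rps27 was at 36.4, 71.5 and 78.3 CPM in wild-type and 71.6, 68.0 and 63.3 CPM in knockout mice, and Rps27rt at 47.9, 22.2 and 24.5 CPM and 26.2, 17.5 and 32.6 CPM. In wild-type mouse 1 the order of the pair was inverted, with Rps27 low and Rps27rt high. Gene and copies together gave 84.2, 93.7 and 103 CPM and 97.9, 85.5 and 96.0 CPM. The ratio of highest to lowest library was 2.15 for Rps27 alone, 2.73 for Rps27rt alone and 1.22 for the sum.

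Rpl17, a large subunit protein by the exit tunnel, had 77.8, 81.7 and 33.3 CPM in wild-type and 33.0, 55.1 and 60.2 CPM in knockout mice. The groups overlapped, with wild-type mouse 3 and knockout mouse 1 low. Rpl17-ps10, which matches it at 99.3% identity over 555 bases, had 2040 counts in wild-type mouse 3 and 1747 in knockout mouse 1 against 845 to 2109 in the other libraries. With its copies Rpl17 came to 179, 209 and 206 CPM and 216, 212 and 218 CPM, and its log2 fold change turned from -0.38 ± 0.37 to 0.12 (edgeR adjusted p = 0.746).

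Rps10, a small subunit protein and a target of ribosome quality control, had 3.75, 1.76 and 2.29 CPM against 3.31, 3.75 and 3.83 CPM by itself. Most of its reads were in Rps10-ps2, with 672 to 1148 counts per library. With copies it stood at 50.6, 55.3 and 63.9 CPM and 58.6, 52.8 and 52.995 CPM, and the log2 fold change turned from 0.48 ± 0.31 to -0.047. Rps27a encodes ubiquitin fused to a small subunit protein. Its level was 77.2, 53.1 and 71.1 CPM in wild-type and 67.2, 59.2 and 170 CPM in knockout mice, so knockout mouse 3 alone stood apart. Without that mouse the log2 fold change of 0.56 ± 0.41 was -0.081; with copies summed it was 0.49.

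**Figure D4:**
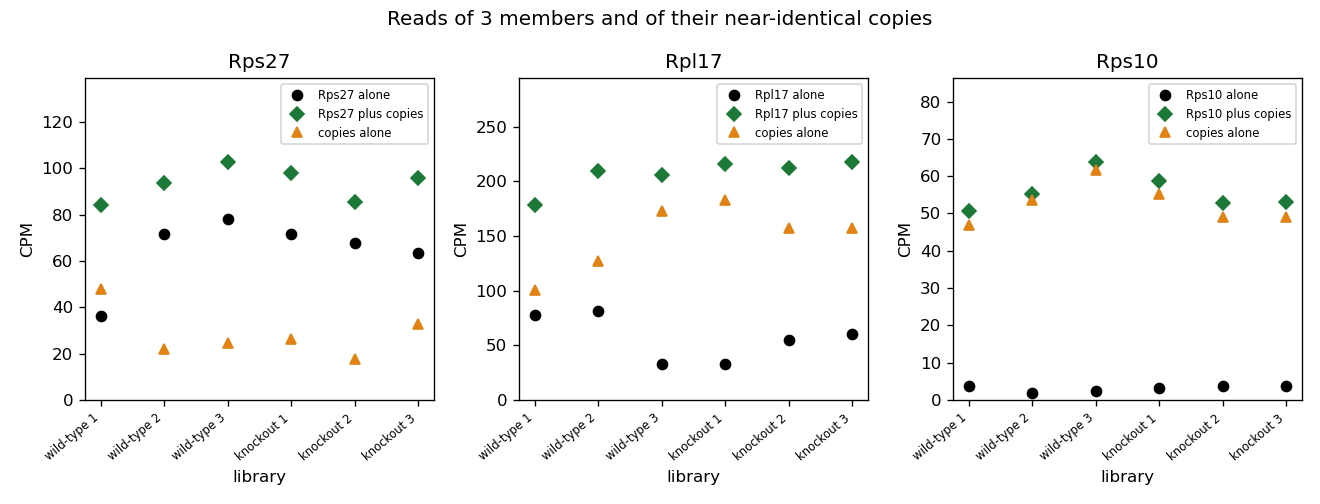
CPM by library of Rps27, Rpl17 and Rps10 alone, of their near-identical copies, and of both together. In wild-type mouse 1 Rps27 is low and its copies are high, and in wild-type mouse 3 and knockout mouse 1 the same holds for Rpl17; for Rps27 the sums differ 1.22-fold between the lowest and highest library.

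Of the members with a lower knockout mean, Rps12, a small subunit protein, had the smallest p. It was at 64.6, 92.2 and 114 CPM in wild-type and 66.6, 75.5 and 70.1 CPM in knockout mice. The groups overlapped through wild-type mouse 1, and the log2 fold change was -0.35 ± 0.20 (edgeR adjusted p = 0.512). Rps13 had -0.13 ± 0.14, Rpsa, which also serves as a laminin receptor, -0.12 ± 0.16, and Rpl36a -0.070 ± 0.15. Overlapping genes on the other strand share at least 30 exon bases with 12 members and have at least 100 counts themselves, among them Rpl23a with Tlcd1 (506 bases), Rps25 with Trappc4 (462 bases) and Rpl5 with Fam69a (953 bases); without strand their reads cannot be told apart.

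Small nucleolar RNAs (snoRNAs), which guide rRNA modification, lie within many members. A higher knockout mean was found for 24 of 30 tested members that host one (median log2 fold change 0.049) and for 34 of 52 other members (median 0.053). Chromosome 2, which carries Cd44, holds 4 members, namely Rpl12, Rpl35, Rpl7a and Rps21, 63.8 to 77.4 Mb away. Their log2 fold changes were -0.054 to 0.053.

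Genes that work with the ribosomal proteins were counted in the same way. The 8 tested non-coding snoRNA host genes all had a higher mean in the knockout (median log2 fold change 0.54), where 48.9% of all genes did. At an unadjusted p under 0.05 there were 5 of the 8, all higher, where 5.22% of all genes were higher at that p, and 0 passed the adjusted threshold in edgeR. Gas5 was at 40.1, 40.1 and 42.2 CPM in wild-type and 56.1, 55.9 and 68.0 CPM in knockout mice, and Snhg1 at 9.94, 7.495 and 7.33 CPM and 11.4, 22.3 and 18.2 CPM. Neither overlapped between groups. Without overlap were 5 of the 8, all higher, where 8.81% of all genes were higher without overlap. Gas5 had a log2 fold change of 0.56 ± 0.12 and Snhg1 of 1.07 ± 0.26, both with an adjusted p of 0.217 in edgeR; in DESeq2 their adjusted p was 0.0256 and 0.0209. Snhg12 had 0.83 ± 0.22 (edgeR adjusted p = 0.226).

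Chaperones and late maturation factors were higher in 18 of 21 cases (median 0.29), where 48.9% of all genes were. At an unadjusted p under 0.05, 7 were higher (5.22% of all genes), and 0 passed the adjusted threshold. Riok2, a kinase of late small subunit maturation, was at 32.7, 26.1 and 24.5 CPM against 33.7, 41.3 and 50.5 CPM (log2 fold change 0.59 ± 0.18). Ltv1 and Grwd1, an export factor of the small subunit and a chaperone of Rpl3, had 0.49 ± 0.17 and 0.53 ± 0.19. All 3 had groups that did not overlap. The same held for 7 of the 21, all higher, where 8.81% of all genes were higher without overlap. The summed level of the list was 884, 721 and 791 CPM in wild-type and 859, 917 and 902 CPM in knockout mice. Wild-type mouse 1 thus lay above knockout mouse 1.

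**Figure D5:**
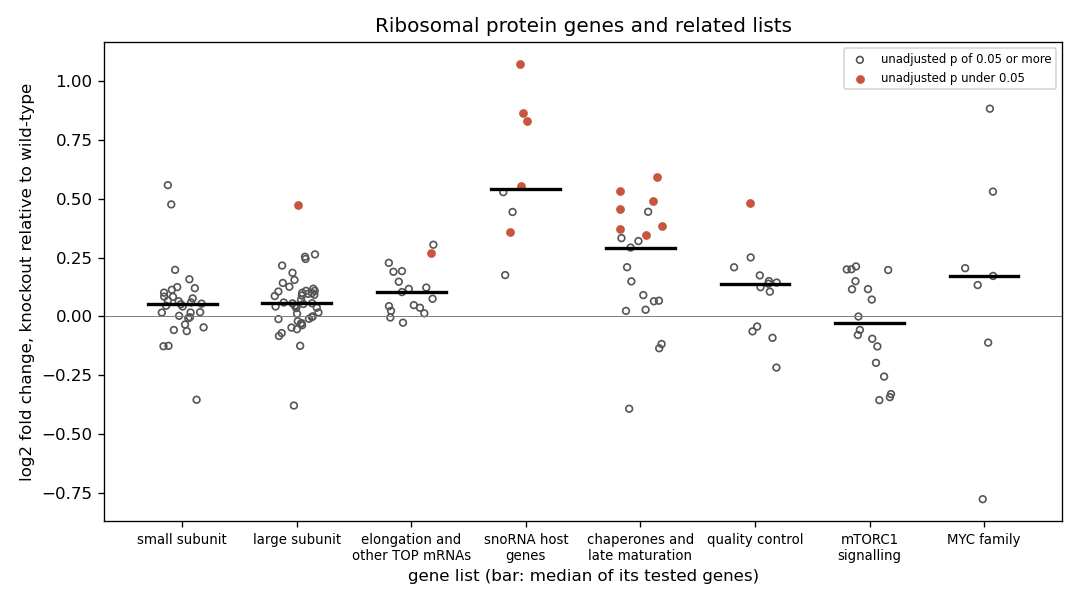
Log2 fold changes of tested genes, knockout relative to wild-type, for both subunits and 6 related lists; filled points have an unadjusted p under 0.05 and bars are medians. Medians of the subunits lie at 0.052 and 0.056, that of snoRNA host genes at 0.54 and that of chaperones and maturation factors at 0.29.

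The protein-coding TOP mRNAs other than ribosomal proteins, such as Eif3e, Npm1 and Naca, were higher in 15 of 17 (median 0.10). For this and the following lists, the share of all genes that were higher is 48.9%. Of the 17, 1, Eif3e, was higher at an unadjusted p under 0.05 in edgeR, where 5.22% of all genes were. The mTORC1 pathway had 8 of 18 higher (median -0.029). It had 0 at an unadjusted p under 0.05 in edgeR, DESeq2 or limma-voom, against 12.8%, 12.3% and 12.0% of all genes. Rptor, the mTORC1 scaffold, had -0.25 ± 0.13, Rheb, its activator, 0.21 ± 0.12, and Sesn3, a stress-induced inhibitor, -0.34 ± 0.15. The MYC family had 5 of 7 higher (median 0.17), with Mxd1 at -0.77 ± 0.35 and Mycl at 0.53 ± 0.31. Ribosome quality control had 9 of 13 higher (median 0.14), with Ascc3 at 0.48 ± 0.16, and the p53 list had 2 of 5 higher (median -0.060). Fau and Rack1 had 0.13 ± 0.16 and 0.010 ± 0.14, near the values of the core genes. Mitochondrial ribosomal proteins, made for the separate ribosome of that organelle, had 50 of 77 higher (median 0.089; 48.9% of all genes were higher), and 0 passed the adjusted threshold. Of the 77, 4 were higher at an unadjusted p under 0.05, a share near the 5.22% of all genes. Groups did not overlap for 16 that were higher and 1 that was lower, where 8.81% and 9.42% of all genes did so. The smallest p were those of Mrpl9 and Mrpl50. Mrpl9 was at 32.3, 34.7 and 36.6 CPM in wild-type and 41.3, 46.7 and 53.8 CPM in knockout mice, without overlap, and Mrpl50 at 45.1 ± 1.94 and 58.1 ± 4.75 CPM (SD, n = 3). Their adjusted p was 0.241 and 0.257 in edgeR.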

How the data were processed

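Poly(A) RNA from 6 livers, 3 per genotype, was quantified by the authors, who deposited a raw count for every Ensembl gene and mouse. The submitters' processing notes list featureCounts 1.5.0-p3, HISAT2 2.0.5 and StringTie 1.3.3b with GRCm38.p6. For strand and multi-mapping reads, the setting used was not given in the sources. No step that marks strand is named per the labels' protocols.

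Members and gene lists were chosen with earlier results of these data known. Of 54682 rows, 54495 matched the GENCODE annotation of the same build; 150 rows with no gene name, 0.273% to 0.509% of counts, were left out. Genotype was tested in R 4.3.3 with edgeR 4.0.16 (filterByExpr, TMM, robust quasi-likelihood F test, Benjamini-Hochberg over 14145 genes, threshold 0.05). The common biological coefficient of variation was 0.237. CPM are TMM-scaled, apart from the floor of 3 counts, which uses library totals alone. TPM use 1 principal transcript per gene. The floor of 3 counts covers counting error only. Alternatives were DESeq2 1.42.0, voom in limma 3.58.1, other scalings and filters, the replicate block, and leaving out each library. Copies were found with BLAST+ 2.17.0. The test was checked on simulated data. With 3 against 3 mice an exact permutation test cannot go below p = 0.1. Mice were the replicates.

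Genes named were the members with the 8 smallest p in each direction, the 6 highest and 4 lowest by TPM, a fixed set of 29 genes including every paralog and Rps4l, members without overlap, and up to 3 genes per other list. Promoter and start sequences are from RefSeq, GRCm38.p6.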

Additional observations from a re-analysis of the deposited data

How the results depend on the processing

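No member was called in edgeR or under any alternative run (RLE scaling, library totals alone, other filters, DESeq2, limma-voom, each library left out, copies summed, paralogs left out), and the smallest adjusted p of a member among the named ones in any setting was 0.200. The count of members higher in the knockout was 32 with library totals alone and 29 to 75 with a library left out. The count at an unadjusted p under 0.05 was 3 in DESeq2 and 0 to 5 with a library left out. Non-overlapping members numbered 2 with library totals alone and 4 to 44 with a library left out. The median log2 fold change was -0.023 with library totals alone and -0.030 to 0.17 with a library left out. The difference in share was -0.11 to 0.12 percentage points with a library left out. With copies summed, an alternative added after seeing the data, the Rps10 log2 fold change turned to -0.047 and the Rpl17 log2 fold change to 0.12, since reads of the copies then count. With a library left out, the Rps27a log2 fold change ran from -0.081 (without knockout mouse 3) to 0.82 and the Ccng1 log2 fold change from -0.50 to 0.054 (without wild-type mouse 3); the cause was not tested. The call of the Cd44 log2 fold change was lost in limma-voom (-8.996, adjusted p = 0.283) and without knockout mouse 1, 2 or 3 (adjusted p = 0.331, 0.0977 and 0.158). Mouse numbers are shared between genotypes. Same-numbered mice correlated at -0.016, -0.018 and -0.010, and differently numbered mice at -0.065 to 0.079. The correlated values were deviations from the mean of each genotype, so they cannot decide whether the mice were paired. With mouse number as a replicate block, the median was 0.067, 61 members were higher, 1 had an unadjusted p under 0.05 and 0 were called, so the block changed no call. Depth of 15429784 to 19293777 counts leaves Rpl24, Rpl39l, Rpl3l and Rpl10l without a test.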
